A study of Mus with 96 samples.

Results

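Per1, Per2, and Per3 (the Period genes) and Cry1 and Cry2 (the cryptochromes) were followed over the day in mouse liver. These 5 genes were taken by symbol from a table of 55487 genes, and all 5 were among the 15548 genes with at least 100 counts over the 96 libraries of the study. Hep-Bmal1KO mice (AlbCre/+/Bmal1flx/flx) lack Bmal1 in hepatocytes, because the albumin promoter drives Cre in these cells, while other liver cells keep the gene. Hep-Bmal1WT littermates (Alb+/+/Bmal1flx/flx) carried the same floxed alleles without Cre. Mice of the C57BL/6J background, aged 8 to 10 weeks, ate normal chow (NC, 14% fat) or a diet low in choline and rich in fat (cdHFD, 60% fat, 2% cholesterol) for 2 weeks under 12 hours of light per day. Livers were taken at zeitgeber time (ZT, hours after lights on) 2, 6, 10, 14, 18, and 22, with 4 mice at each ZT of each genotype and diet. Each such group held 2 males and 2 females, except Hep-Bmal1WT on cdHFD at ZT 14, with 3 males and 1 female.

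The circadian clock is a feedback loop. BMAL1 (encoded by Arntl) pairs with CLOCK or NPAS2 and activates Per and Cry genes, whose proteins enter the nucleus as complexes and repress their own activators. The CRY proteins are the stronger repressors, and the PER proteins scaffold the complex and bring in casein kinase. REV-ERB receptors act on Arntl and on Cry1, and Per genes also respond to signals from outside the cell, such as glucocorticoids, temperature, and feeding. In liver the loop tunes glucose, lipid, and bile acid metabolism to the feeding phase, which in mice is the night.

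By the RefSeq annotation of GRCm38.p6 (mm10), all 5 are protein-coding. Per1 (ENSMUSG00000020893) lies on chromosome 11 at 69095108 to 69109965 and Per2 (ENSMUSG00000055866) on chromosome 1 at 91415977 to 91459351. Per3 (ENSMUSG00000028957) lies on chromosome 4 at 150997020 to 151044710. Cry1 (ENSMUSG00000020038) lies on chromosome 10 at 85131700 to 85185054 and Cry2 (ENSMUSG00000068742) on chromosome 2 at 92403646 to 92434085. Per3 overlaps Uts2, which drew 4 counts in all, Cry2 overlaps D930015M05Rik, which drew 37, and Per2 overlaps Gm35591, for which no count was analysed here.

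BRB-seq, which barcodes each RNA sample and reads the 3′ end of its mRNA, gave between 1861740 and 9718615 counted reads per library, with a median of 6412078.5. All 6 hepatocyte markers (Alb, Apoa1, Ttr, Cyp2e1, Cps1, Serpina1c) were tested in every group. The floxed exon lies upstream of the 3′ end that is read, so the Arntl count checks no deletion, and Hep-Bmal1KO means ranged from 2.43 to 9.83 CPM over both diets and all ZTs. The genotype label was checked on 11 clock genes, Arntl among them. It was checked separately on the 20 genes outside the clock that best separated the genotypes at the other ZTs. On both sets, 7 of the 96 libraries stood nearer the other genotype. They were 1 Hep-Bmal1WT and 1 Hep-Bmal1KO library at ZT 6, 1 Hep-Bmal1KO library at ZT 10, and 1 Hep-Bmal1WT library at ZT 18 on NC, and 1 Hep-Bmal1WT library at ZT 10 and 1 library of each genotype at ZT 14 on cdHFD. The Per and Cry genes took no part in this check, and results that rest on these libraries are given with and without them. Library names are written like plate wells and place each genotype and diet in 3 columns of its own, so column and group cannot be told apart.

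In livers labelled Hep-Bmal1WT on NC, Per1, Per2, Per3, and Cry1 were rhythmic at p under 0.01 in edgeR's test of a 24-hour cosine, and Cry2 was not (p = 0.0111, n = 24). Of all genes tested, 19.4% passed in this group. Values are given as CPM, counts scaled to library size by TMM. Per3 and Per1 rose late in the light phase, Per2 followed at lights off, and Cry1 was highest late in the night. Per3 at ZT 10 read 21.2, 29.8, 38.1, and 53.2 CPM, against 0.233, 1.22, 1.78, and 2.57 CPM at ZT 2, and its highest ZT mean was 24.5 times its lowest. Per1 at ZT 10 read 13.4, 23.2, 37.9, and 40.2 CPM, and its highest mean was 9.54 times its lowest, at ZT 2. All ZT 10 values of both genes lay above those of every other ZT, of which ZT 14 came nearest with up to 13.3 CPM for Per1 and 16.5 CPM for Per3. Per2 at ZT 14 read 28.6, 28.8, 31.1, and 47.02 CPM, which overlapped its ZT 10 values of 22.6 to 33.02 CPM. Cry1 at ZT 18 read 29.9, 31.99, 33, and 54.7 CPM, of which the highest was a library standing with the other genotype, and it read 6.01 to 14.4 CPM at ZT 10. Cry2 had the flattest day, with ZT means between 10.3 and 24.8 CPM.

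**Figure D1:**
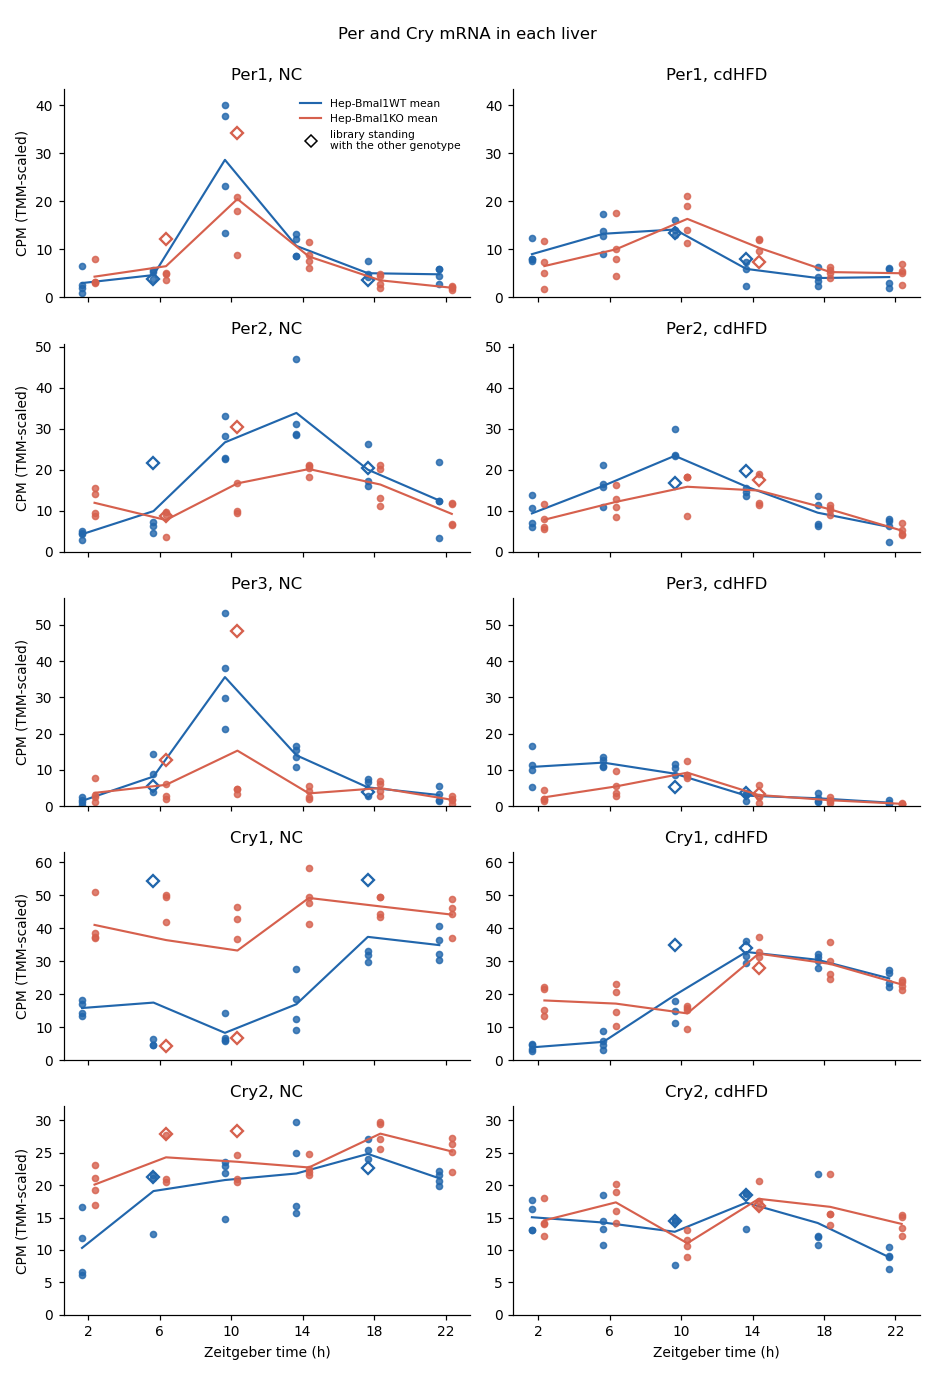
CPM of each Per and Cry gene (rows) in every liver against ZT in hours, on NC (left) and cdHFD (right); points are single libraries, lines join the means of 4 libraries, blue is Hep-Bmal1WT and red Hep-Bmal1KO, and open diamonds are the 7 libraries standing with the other genotype. Cry1 on NC stayed high through the day in Hep-Bmal1KO, with means of 33.3 to 49.2 CPM, and the 2 Hep-Bmal1KO diamonds lay at 4.32 and 6.83 CPM.

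The fitted cosine placed Per3 at ZT 11.4 ± 0.45 (SE, n = 24), Per1 at 11.7 ± 0.715, Per2 at 13.9 ± 0.494, and Cry1 at 20.1 ± 0.723 hours in this group. The gap between Per3 and Per1 was 0.305 hours (95% interval -0.791 to 1.402), so this pair did not differ beyond its error. Per2 followed Per1 by 2.21 hours (0.487 to 3.94), and Cry1 followed Per2 by 6.23 hours (4.38 to 8.08). Without the discordant libraries Cry2 also passed in this group (p = 0.00834, n = 22), and the counts-based amplitude of Cry1 went from 0.872 to 1.30 log2 units.

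Livers labelled Hep-Bmal1KO on NC had more Cry1 and Cry2 mRNA over the day, a lower Per3 mesor, and flatter Per2, Per3, and Cry1 profiles, while the amplitude of Per1 did not pass the test. Mesor (the mean of the fitted wave), amplitude, and phase were compared on the log2 scale of variance-stabilized values with the CircaCompare model, called at an unadjusted p under 0.05, and n stands for the libraries per group. The mesor was called for 3 of the 5 genes and the amplitude for 4, against 22.2% and 4.12% of all genes. With all libraries, neither these amplitudes nor the Per3 mesor passed after adjustment. Phase could be compared for the 3 Per genes, rhythmic in both genotypes, and none was called, against 13.3% of 818 genes. Per3 could be compared only with the discordant libraries kept.

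Cry1, the repressor that acts late in the cycle, differed most in level. Its mesor difference (Hep-Bmal1KO minus Hep-Bmal1WT) was 1.02 ± 0.198 (SE, n = 24, p = 6.71e-06, adjusted p = 0.000361). By the quasi-likelihood test in edgeR over the mean of all ZTs, the log2 fold change was 1.11 ± 0.17 (2.15-fold, adjusted p = 5.53e-07). At ZT 10 the 4 Hep-Bmal1KO livers read 6.83, 36.8, 42.9, and 46.6 CPM and the Hep-Bmal1WT livers 6.01, 6.04, 6.94, and 14.4 CPM, a 4.03-fold difference (edgeR adjusted p = 0.00351). The groups overlapped there only through the discordant Hep-Bmal1KO library at 6.83 CPM. At ZT 14 they did not overlap, at 41.4 to 58.4 against 9.15 to 27.6 CPM (2.91-fold, edgeR adjusted p = 0.0163). Of all genes, 9.85% did not overlap at that ZT. In all, 4 of 30 pairs of gene and ZT passed on NC, at ZTs where 0.894%, 0.00643%, 2.68%, 4.79%, 0.617%, and 1.19% of all genes passed, from ZT 2 to ZT 22. At ZT 18 and 22 the log2 fold changes of Cry1 were 0.31 ± 0.399 and 0.34 ± 0.399 and did not pass. The amplitude of Cry1 differed by -0.60 ± 0.281 (n = 24, p = 0.0377, adjusted p = 1). With the 7 discordant libraries left out, the mesor difference was 1.37 ± 0.0847 and the amplitude difference -1.05 ± 0.12 (adjusted p = 6.91e-07). A change in the number of cells of a type and a change in RNA per cell cannot be told apart in whole liver.

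At ZT 6 on NC, 1 library of each label carried the opposite Cry1 level. The Hep-Bmal1WT livers read 4.63, 4.78, 6.41, and 54.2 CPM and the Hep-Bmal1KO livers 4.32, 41.8, 49.5, and 50.1 CPM. The highest of the first and the lowest of the second are the 2 discordant libraries. With all libraries the log2 fold change at ZT 6 was 1.05 ± 0.411 (edgeR adjusted p = 0.323), and without them it was 3.17 (edgeR adjusted p = 1.10e-13).

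Cry2, the paralog of Cry1 and also a repressor of CLOCK and BMAL1, rose by less. Its mesor difference was 0.31 ± 0.092 (n = 24, p = 0.00178, adjusted p = 0.0242), and edgeR gave 0.34 ± 0.0815 over all ZTs (1.27-fold, adjusted p = 0.00114). The ZT passing on its own was ZT 2, where Hep-Bmal1KO livers read 16.9, 19.2, 21.2, and 23.04 CPM against 6.21, 6.53, 11.9, and 16.6 CPM (edgeR adjusted p = 0.00646), with no overlap. At that ZT 0.894% of all genes passed and 4.47% did not overlap. The amplitude difference of -0.28 ± 0.13 (n = 24, p = 0.0368) was -0.27 and not called without the 7 libraries.

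Per3, the Period gene whose loss alters the core rhythm least, had a lower level and amplitude. The mesor difference was -0.57 ± 0.205 (n = 24, p = 0.00782, adjusted p = 0.0681) and the amplitude difference -0.96 ± 0.29 (p = 0.00191, adjusted p = 0.562). In edgeR over all ZTs its log2 fold change of -0.53 ± 0.24 did not pass (adjusted p = 0.132), and it was -0.99 without the 7 libraries (edgeR adjusted p = 0.000194). At ZT 10 the Hep-Bmal1KO livers read 3.36, 4.71, 4.81, and 48.3 CPM against 21.2 to 53.2 CPM in Hep-Bmal1WT. The highest of the 4 was the discordant library, and the other 3 lay below every Hep-Bmal1WT value. With it the log2 fold change was -1.26 ± 0.479 (edgeR adjusted p = 0.153), and without the 7 libraries -3.04 (edgeR adjusted p = 3.64e-06). At ZT 14 the groups did not overlap, at 1.86 to 5.64 against 10.7 to 16.5 CPM (edgeR adjusted p = 0.0159). At ZT 14, 4.79% of all genes passed and 9.85% did not overlap. Its rhythm in Hep-Bmal1KO on NC rested on the same libraries, with an edgeR p of 0.0041 with all (n = 24) and 0.391 without the discordant ones (n = 22).

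Per2, the Period gene tied most closely to the clock's period and to nuclear receptors, had a lower amplitude, and its level did not pass. The amplitude difference was -0.67 ± 0.202 (n = 24, p = 0.00175, adjusted p = 0.556), and the mesor difference -0.15 ± 0.143 did not pass (p = 0.287). At ZT 2, the lowest ZT of Hep-Bmal1WT, Hep-Bmal1KO livers read 8.62 to 15.5 CPM against 2.97 to 5.14 CPM, with no overlap (edgeR adjusted p = 0.0659). Hep-Bmal1KO livers were lowest at ZT 6, at 3.66 to 9.65 CPM. At ZT 14, the highest ZT of both, they read 18.2 to 21.1 against 28.6 to 47.02 CPM, again without overlap (edgeR adjusted p = 0.201). Of all genes, 4.47% did not overlap at ZT 2 and 9.85% at ZT 14. Neither ZT passed with all libraries, and ZT 2 passed without the 7 (edgeR adjusted p = 0.0198). None of the 7 was taken at ZT 2, and the log2 fold change there was 1.42 in both fits. Its SE went from 0.404 to 0.363, since all libraries share 1 estimate of the spread.

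Per1, the Period gene that responds fastest to outside signals, stayed rhythmic in Hep-Bmal1KO on NC (edgeR p = 3.04e-08, n = 24). Its amplitude was 0.986 ± 0.144 in Hep-Bmal1KO and 0.997 ± 0.187 in Hep-Bmal1WT, a difference of -0.011 with a 95% interval of -0.487 to 0.465. At ZT 10 its values overlapped, at 8.88 to 34.2 against 13.4 to 40.2 CPM, and at ZT 22 they did not, at 1.62 to 2.29 against 2.80 to 6.03 CPM (edgeR adjusted p = 0.228). Of all genes, 6.59% did not overlap at ZT 22. In edgeR's test of genotype by ZT none of the 5 genes passed on NC at an adjusted p under 0.05. Of all genes 0.63% passed with all libraries, and DESeq2 called 0 of the 5. All 5 had an unadjusted p under 0.05, a threshold for which no share of all genes is given here. After the 7 were left out, 3 passed, Cry1, Per2, and Per3, and the share of all genes in that fit is not given here.

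Marker sums of some other cell types differed in their medians between the genotypes, with overlapping ranges and no test. The summed CPM of the 4 cholangiocyte markers had a median of 28.05 (range 9.62 to 59.1) in Hep-Bmal1KO and 14.1 (6.10 to 39.7) in Hep-Bmal1WT on NC, and that of the 6 hepatocyte markers 113753 (90769 to 213348) and 156710 (103929 to 213184), with none of these markers at 0 in a whole group. The macrophage (326 and 342 CPM), endothelial (125 and 125 CPM), stellate (256 and 258 CPM), and neutrophil (11.6 and 11.3 CPM) sums had near-equal medians. The lymphocyte sums had medians of 4.06 and 3.37 CPM in Hep-Bmal1KO and Hep-Bmal1WT. The part of these cells in the Per and Cry differences was not tested.

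**Figure D2:**
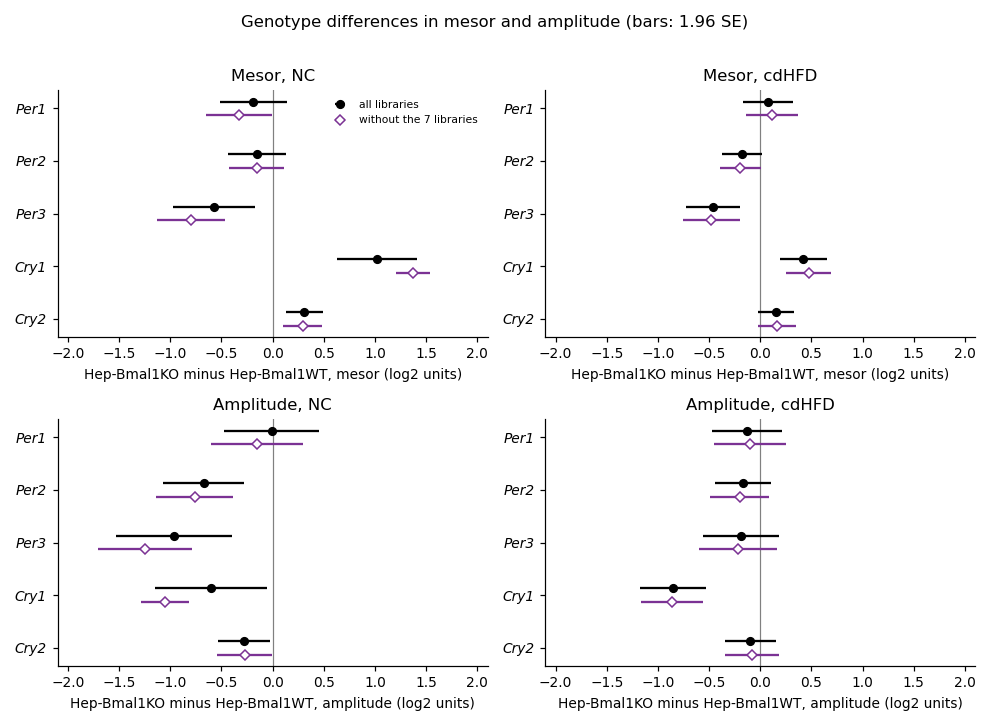
Genotype differences (Hep-Bmal1KO minus Hep-Bmal1WT, log2 units, horizontal axis) in mesor (top) and amplitude (bottom) of the 5 genes on NC (left) and cdHFD (right); black circles use all libraries, open diamonds leave out the 7 discordant ones, and bars are normal 95% intervals. On NC the Cry1 mesor difference was 1.02 with and 1.37 without them.

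On cdHFD the genotype difference was called for the mesor of Cry1 and Per3, the amplitude of Cry1, and the phase of Per1 and Per3. Neither phase difference passed after adjustment. In Hep-Bmal1WT 4 genes were rhythmic, all but Cry2 (background 16.1%), and in Hep-Bmal1KO the same number (background 8.46%), again all but Cry2. On NC, Hep-Bmal1KO had 3, the Per genes (background 9.01%), of which Per3 was not rhythmic without the discordant libraries. The mesor was called for 2 genes, against 21.1% of all genes, the amplitude for 1, against 2.93%, and the phase for 2 of the 4 that could be compared, against 14.5% of 712.

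On cdHFD Cry1 was higher in Hep-Bmal1KO at ZT 2, the lowest ZT of Hep-Bmal1WT. There Hep-Bmal1KO livers read 13.5, 15.2, 21.6, and 22.4 CPM against 2.79, 3.37, 4.68, and 5.01 CPM, a 4.58-fold difference (edgeR adjusted p = 0.0126) at a ZT where 0.367% of genes passed and 4.37% did not overlap. At ZT 6 they read 10.3 to 23.1 against 3.01 to 9.03 CPM, also without overlap (edgeR adjusted p = 0.0991, and 2.61e-06 without the 7 libraries), where 7.69% of genes did not overlap. None of the 7 lay in these ZT 6 groups, whose test shares its estimate of the spread with all libraries. At ZT 10, the lowest ZT of Hep-Bmal1KO, they read 9.39 to 16.6 against 11.5 to 34.8 CPM, which overlapped (0.723-fold, edgeR adjusted p = 0.838). The value of 34.8 CPM came from the discordant Hep-Bmal1WT library. At ZT 14 they read 27.9 to 37.3 and 29.6 to 36.1 CPM, and the log2 fold change was -0.023 ± 0.396. The amplitude difference was -0.85 ± 0.166 (n = 24, p = 7.08e-06, adjusted p = 0.0367), which was 1 of 3 genes (0.0193% of all) passing after adjustment, and the mesor difference was 0.42 ± 0.117 (adjusted p = 0.0195). These were -0.86 ± 0.155 and 0.47 ± 0.111 without the 7 libraries. In edgeR over all ZTs Cry1 was the single gene of the 5 to pass (0.52 ± 0.17, adjusted p = 0.044), against 7% of all genes, and this call was lost whichever of the 4 replicate numbers was left out.

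Per3 was lower in Hep-Bmal1KO on cdHFD early in the light phase. At ZT 2 the livers read 1.35, 1.85, 2.09, and 4.45 CPM against 5.25, 10.1, 11.3, and 16.6 CPM, with no overlap (edgeR log2 fold change -2.102 ± 0.528, adjusted p = 0.0476). At ZT 6 it read 2.91 to 9.63 against 10.7 to 13.4 CPM, without overlap (edgeR adjusted p = 0.495), and from ZT 10 on the groups overlapped at every ZT. Of all genes, 4.37% did not overlap at ZT 2 and 7.69% at ZT 6. The mesor difference of Per3 was -0.46 ± 0.134 (adjusted p = 0.0262). In edgeR over all ZTs its log2 fold change of -0.67 ± 0.242 did not pass (adjusted p = 0.0757). Its peak came at ZT 9.0 ± 0.511 in Hep-Bmal1KO and 6.59 ± 0.481 in Hep-Bmal1WT, 2.41 ± 0.71 hours later (n = 24, p = 0.0015, adjusted p = 0.0597). Per1 peaked at 10.1 ± 0.782 and 7.26 ± 0.522, 2.84 ± 0.923 hours later (n = 24, p = 0.00366, adjusted p = 0.0841). The Per1 phase call was lost without replicate 4 and in males alone, and that of Per3 in females alone. The phase differences of Per2, 1.0802 hours (95% interval -0.509 to 2.67), and of Cry1, 1.42 hours (-0.597 to 3.43), did not pass. For Cry2, which was rhythmic in neither genotype, no phase was compared, and its ZT 22 values of 12.2 to 15.5 against 7.05 to 10.5 CPM did not overlap (edgeR adjusted p = 0.199, with 7.39% of all genes not overlapping). At single ZTs on cdHFD, 2 of 30 pairs passed, both at ZT 2, and from ZT 6 to ZT 22 passed 0.277%, 0.00643%, 0%, 0.0579%, and 0.0129% of all genes. In edgeR's test of genotype by ZT 0 of the 5 genes passed on cdHFD, against 0.0386% of all genes, and DESeq2 called 1. An unadjusted p under 0.05 was found for 2 of the 5, with no share of all genes given here for that threshold. The cholangiocyte markers differed in the same direction as on NC, with medians of 37.3 and 21.6 CPM in Hep-Bmal1KO and Hep-Bmal1WT. In the same order, stellate sums had medians of 773 and 627 CPM and hepatocyte sums of 62750 and 74705 CPM. Medians were 1930 and 1757 CPM for macrophages, 99.5 and 87.2 CPM for neutrophils, 132 and 150 CPM for endothelial cells, and 4.68 and 6.45 CPM for lymphocytes. All these ranges overlapped, and the part of these cells was not tested.

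Within Hep-Bmal1WT livers the peaks of Per1, Per2, Per3, and Cry1 came earlier on cdHFD. The phase was called for 4 of 4 genes, against 46.4% of 1049 genes, and in the earlier direction against 41%. The peak of Per3 moved by -4.80 ± 0.678 hours, of Per1 by -4.44 ± 0.94, of Cry1 by -3.95 ± 0.788, and of Per2 by -3.85 ± 0.77. All 4 passed after adjustment, as did 38.8% of the genes compared, with adjusted p of 3.42e-07, 0.000182, 8.39e-05, and 8.65e-05. Leaving out the 7 libraries gave -4.65, -4.56, -3.32, and -4.26 hours, and all 4 passed. On cdHFD, Per2 peaked 2.80 hours (95% interval 1.35 to 4.25) after Per1 and Cry1 6.13 hours (4.78 to 7.48) after Per2.

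**Figure D3:**
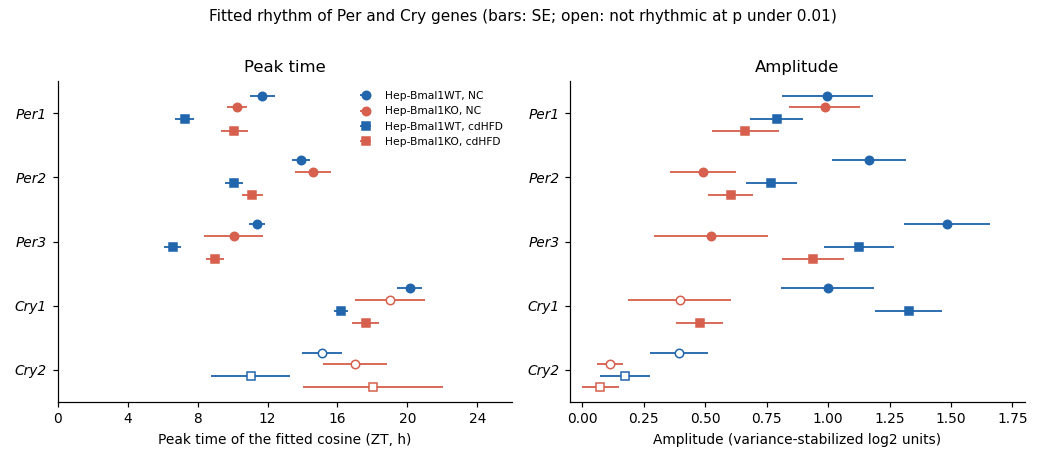
Peak time in ZT hours (left) and amplitude in variance-stabilized log2 units (right) of the fitted cosine for each gene; circles are NC, squares cdHFD, blue Hep-Bmal1WT and red Hep-Bmal1KO, bars are the SE over 24 libraries, and open symbols were not rhythmic at p under 0.01. In Hep-Bmal1WT the cdHFD squares of Per1, Per2, Per3, and Cry1 lie 3.85 to 4.80 hours left of the NC circles.

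At single ZTs, 17 of 30 gene and ZT pairs passed between the diets in Hep-Bmal1WT, at ZTs where 26.4%, 27.5%, 30.6%, 28.2%, 29.3%, and 27.6% of all genes passed, from ZT 2 to ZT 22. At ZT 2 all 5 genes passed. Per3 there read 5.25 to 16.6 CPM on cdHFD and 0.233 to 2.57 CPM on NC (7.57-fold, edgeR adjusted p = 0.000224), and Cry1 2.79 to 5.01 against 13.5 to 18.4 CPM (0.254-fold, edgeR adjusted p = 0.000843). Per1 read 7.62 to 12.4 against 0.933 to 6.53 CPM (3.58-fold, edgeR adjusted p = 0.00151). These 3 and Per2 did not overlap between the diets at ZT 2, where 20.1% of genes did not overlap. Per3 turned round at ZT 10, at 5.14 to 11.6 against 21.2 to 53.2 CPM (0.252-fold, edgeR adjusted p = 0.000793), and at ZT 14, at 1.48 to 3.63 against 10.7 to 16.5 CPM (0.206-fold, edgeR adjusted p = 0.000663). Cry1 at ZT 6 passed with all libraries (log2 fold change -1.64 ± 0.448, edgeR adjusted p = 0.00317) and rested on the discordant Hep-Bmal1WT library on NC at 54.2 CPM, since it was 0.11 without the 7 libraries (edgeR adjusted p = 0.834).

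**Figure D4:**
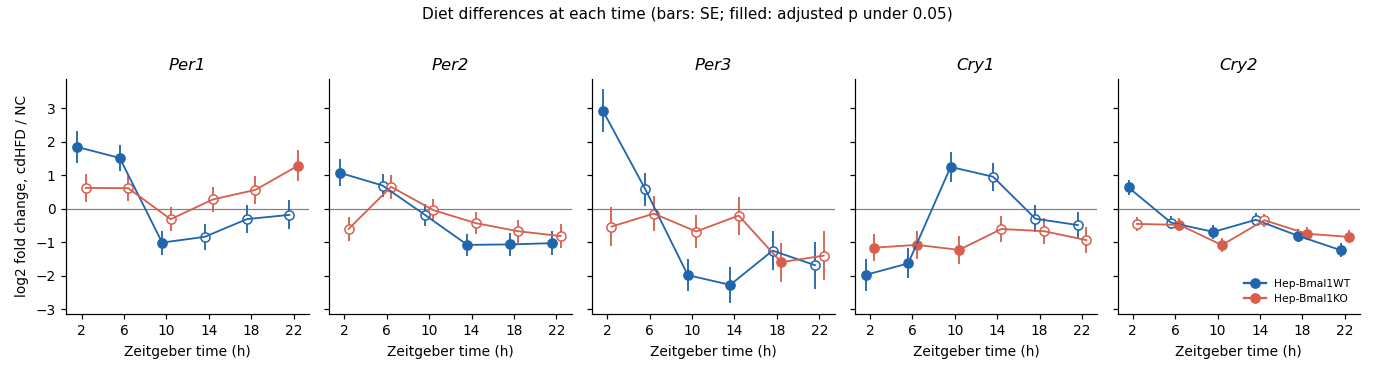
Log2 fold change of each gene between the diets (cdHFD over NC, vertical axis) at each ZT in hours, in Hep-Bmal1WT (blue) and Hep-Bmal1KO (red); bars are the SE from the edgeR fit, and filled points passed at an adjusted p under 0.05. In Hep-Bmal1WT, Per3 went from 2.92 at ZT 2 to -2.28 at ZT 14, and in Hep-Bmal1KO its values lay between -1.60 and -0.15.

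Levels over the day were called for Cry2 and Per3. Cry2 was lower on cdHFD in Hep-Bmal1WT, with a mesor difference of -0.39 ± 0.11 (adjusted p = 0.00244) and an edgeR fold of 0.718 over all ZTs (adjusted p = 5.64e-07), against 58.8% of all genes passing. At ZT 22 it read 7.05 to 10.5 CPM on cdHFD and 19.9 to 22.2 CPM on NC (edgeR adjusted p = 1.09e-06). Per3 was lower by the same mesor difference (-0.39 ± 0.159, adjusted p = 0.0348). The mesors of Per1, Per2, and Cry1 did not pass, so 2 of 5 genes were called against 60.2% of all genes. The amplitude passed for Per2 alone, at -0.40 ± 0.183 (n = 24, p = 0.036, adjusted p = 0.591), against 7.92% of all genes.

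In Hep-Bmal1KO livers both cryptochromes were lower on cdHFD, and of the 3 genes compared for phase the shift of Per2 was called. Cry1 fell over all ZTs to 0.518-fold (edgeR log2 fold change -0.95 ± 0.164, adjusted p = 4.59e-07), with a mesor difference of -0.73 ± 0.161 (adjusted p = 0.000122). At ZT 18 it read 24.7 to 35.8 CPM on cdHFD and 43.3 to 49.4 CPM on NC, without overlap (edgeR adjusted p = 0.194, and 0.00766 without the 7 libraries), at a ZT where 32.9% of genes did not overlap. None of the 7 lay in these groups. The log2 fold change was -0.67 in both fits, and its SE, from a spread shared by all libraries, went from 0.396 to 0.207. Cry2 fell to 0.632-fold (edgeR adjusted p = 1.20e-11), with a mesor difference of -0.54 ± 0.0665 (adjusted p = 1.91e-09). At ZT 10 Cry2 read 8.90 to 13.05 CPM on cdHFD and 20.5 to 28.3 CPM on NC (edgeR adjusted p = 4.93e-06). Per1 rose, with a mesor difference of 0.37 ± 0.14 (adjusted p = 0.0212) and at ZT 22 values of 2.69 to 6.96 against 1.62 to 2.29 CPM (edgeR adjusted p = 0.0229). These 3 mesor calls of 5 stood against 64.8% of all genes, and no amplitude was called, against 4.25%. Without the 7 libraries the amplitudes of Cry1 (0.39 ± 0.112) and Per3 (0.70 ± 0.197) were called.

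Per2 peaked at ZT 11.1 ± 0.577 on cdHFD and 14.6 ± 1.04 on NC in Hep-Bmal1KO, a difference of -3.47 ± 1.15 hours (n = 24, p = 0.00422, adjusted p = 0.0163). Per1, at -0.156 hours (95% interval -2.12 to 1.81), and Per3, at -1.08 hours (-4.22 to 2.07), did not pass, and the intervals leave shifts of over an hour in either direction. Of 270 genes compared 42.6% were called. Without the 7 discordant libraries Per3 could not be compared, since it was not rhythmic on NC. In edgeR's test over all ZTs the 5 genes all passed in Hep-Bmal1KO (4 lower, and Per1 higher), against 62.5% of all genes. With the 7 left out, Per2 (-0.25, adjusted p = 0.089) and Per3 (-0.36, adjusted p = 0.124) did not pass. At single ZTs 9 of 30 pairs passed in Hep-Bmal1KO, at ZTs where 30.4%, 32.7%, 36.6%, 27.8%, 32.8%, and 32.5% of all genes passed, from ZT 2 to ZT 22. Marker sums of several cell types differed between the diets. The summed hepatocyte markers had medians of 156710 and 74705 CPM on NC and cdHFD in Hep-Bmal1WT and of 113753 and 62750 CPM in Hep-Bmal1KO. The 5 macrophage markers had medians of 342 and 1757 CPM in Hep-Bmal1WT and of 326 and 1930 CPM in Hep-Bmal1KO, with no overlap of the ranges (at most 513 on NC and at least 890 on cdHFD). The 5 stellate markers did not overlap either (at most 379 on NC and at least 471 on cdHFD). The 3 neutrophil markers had medians of 11.3 and 87.2 CPM in Hep-Bmal1WT and of 11.6 and 99.5 CPM in Hep-Bmal1KO, while the 5 endothelial markers lay at 125 and 150 CPM and at 125 and 132 CPM. The part of these cells in the diet differences was not tested.

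Whether the genotype difference itself differed between the diets was tested from 1 model of all 96 libraries. The mesor difference of Cry1 was 0.60 smaller on cdHFD, at -0.60 ± 0.231 (n = 24, p = 0.0107, adjusted p = 0.158), and without the 7 libraries it was -0.89 ± 0.14 (adjusted p = 3.98e-06). It was the single mesor called of 5, against 15.2% of genes, and without the 7 libraries that of Per1 was called too (0.45 ± 0.209). The amplitude differences of Per2 (0.51 ± 0.245, n = 24, p = 0.0408) and Per3 (0.78 ± 0.347, p = 0.0279) were called, against 2.03% of genes, and neither passed after adjustment (adjusted p = 0.999 for both). The phase differences of Per1, 4.28 ± 1.36 hours (n = 24, p = 0.00227, adjusted p = 0.0643), and Per3, 3.72 ± 1.63 hours (p = 0.0246, adjusted p = 0.197), were called among the 3 compared, against 16.2% of 160 genes. Per2, at 0.374 hours (95% interval -2.46 to 3.21), was not. Without the 7 libraries the value for Per1 was 4.36 hours and was called, and Per3 could not be compared, since it was not rhythmic in Hep-Bmal1KO on NC.

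In Hep-Bmal1KO livers on NC, Per2 followed Per1 by 4.36 hours (95% interval 2.12 to 6.61), and on cdHFD by 1.04 hours (-1.28 to 3.36), so this pair did not differ beyond its error on cdHFD. Whether the spacing differed between the diets was not tested. Cry1 followed Per2 by 6.47 hours (4.44 to 8.496) on cdHFD in Hep-Bmal1KO. On NC it was not rhythmic there (p = 0.413, n = 24), and its peak was not compared.

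Sex was tested on the counts as female minus male with genotype, diet, and ZT as cells. None of the 5 genes passed in edgeR at an adjusted p under 0.05, against 17.2% of all genes. Cry2 alone had an unadjusted p under 0.05, at 0.13 ± 0.0557 (edgeR adjusted p = 0.107). Per3 read a mean of 8.13 CPM in females and 5.49 CPM in males (log2 fold change 0.31 ± 0.161, edgeR adjusted p = 0.202). DESeq2 also called 0. Without the 7 libraries Cry1 passed, at 0.24 ± 0.0591 (edgeR adjusted p = 0.00136). The difference between the sexes did not pass as differing by genotype for any of the 5, with the smallest p at Per3 (edgeR adjusted p = 0.577), against 0.0386% of all genes.

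The other arms of the clock were counted over lists of genes, each fully among the genes tested. Of the 3 activators, Npas2 (2.54 ± 0.384) and Clock (0.32 ± 0.0867) were higher in Hep-Bmal1KO on NC in edgeR over all ZTs (adjusted p = 3.57e-07 and 0.005), beside 16% of all genes in either direction. The list's median was 0.32 and that of all genes -0.0030. On cdHFD, Npas2 was the 1 of the 3 to pass (1.66 ± 0.364, adjusted p = 0.00118). The amplitude of the activators was lower for 2 of 3 on NC and for all 3 on cdHFD, against 4.12% and 2.93% of all genes in either direction, with Arntl at -1.11 ± 0.216 and -0.97 ± 0.171. On NC, Clock was called only before adjustment (CircaCompare adjusted p = 0.541). On cdHFD, Npas2 and Clock were called only before adjustment (adjusted p = 1 for both). In Hep-Bmal1WT the peaks of all 3 activators came earlier on cdHFD, by -4.66 hours for Arntl, -6.02 for Npas2, and -6.77 for Clock.

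Of 10 nuclear receptors and output factors, 2 were higher and 4 lower in Hep-Bmal1KO on NC over all ZTs, against 16% of all genes. A lower amplitude was called for 6, against 4.12% of all genes in either direction. Nr1d2, which encodes REV-ERB beta, was among the lower (-1.32 ± 0.198). On cdHFD 3 were lower, against 7% of all genes in either direction. Of the 7 compared, 5 peaked later in Hep-Bmal1KO, against 14.5% of genes compared in either direction. Among them was the output factor Dbp at 2.20 ± 0.564 hours. The median over the 7 was 1.88 hours against 0.464 for all genes compared. Between the diets in Hep-Bmal1WT all 7 compared peaked earlier, against 41% of genes compared, with a median of -4.60 hours against -1.93 for all genes compared.

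Of 18 partners, kinases, and turnover factors of PER and CRY, 3 were lower and 0 higher in Hep-Bmal1KO on NC, a share close to the 16% of all genes called. Ciart, a repressor of the activators, stood at -1.91 ± 0.395 and Usp2, a deubiquitinase that acts on clock proteins, at -0.51 ± 0.171. On cdHFD Usp2 was the 1 of 18 to pass, against 7% of all genes, at -0.74 ± 0.167 (edgeR adjusted p = 0.00152). Between the diets, 5 were higher and 6 lower on cdHFD in Hep-Bmal1KO and 4 higher and 6 lower in Hep-Bmal1WT, against 62.5% and 58.8% of all genes. Csnk1e, which encodes casein kinase 1 epsilon, was higher in both, by 1.27 ± 0.135 and 0.81 ± 0.137. A list of 11 targets of signals from outside the liver clock held genes that report glucocorticoid, heat, and cold signals, besides Sik1 and Crem. Of these 11, 3 were higher and 1 lower in Hep-Bmal1KO on NC, against 16% of all genes. The glucocorticoid targets Sgk1 and Fkbp5 stood at 0.72 ± 0.163 and -0.65 ± 0.155. In Hep-Bmal1KO 3 of the 3 compared, Hsp90aa1, Hsph1, and Tsc22d3, peaked earlier on cdHFD, by -5.49, -4.49, and -3.54 hours. Of all genes compared there, 42.6% were called in either direction. In Hep-Bmal1WT 3 of the 5 compared also peaked earlier, against 41% of genes compared, by -3.66 hours for Tsc22d3, -3.60 for Hsp90aa1, and -5.04 for Fkbp5.

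Likeness of profile was described over the 24 means of genotype, diet, and ZT among the 8999 genes with a mean of at least 5 CPM, which share the libraries and their depth. Among the genes most like Cry1 were G6pc (Pearson r = 0.87) and Lgalsl (0.858). Per3 was most like Coq10b (0.91), Dbp (0.908), and Pcsk4 (0.90). Per2 was most like Usp2 (0.898), Noct (0.854), and Marveld1 (0.8293), and Per1 most like Nudt3 (0.89), Coq10b (0.87), and Rad54l2 (0.863). Cry2 had the lowest leading value, with Tsen34 (0.832), Slc2a8 (0.818), and Slc25a11 (0.812). Among the 5 genes themselves, Per1 and Per3 were nearest over the same 24 means (r = 0.79) and Per3 and Cry1 farthest (r = -0.61).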

How the data were processed

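Liver RNA was measured by BRB-seq. Per the labels, the submitters' processing notes name STAR, HTSeq, featureCounts, DESeq2, and the mm10 build, with no versions, and how molecular barcodes were collapsed is not given in the sources used here. The authors deposited raw counts per gene. Rows for reads without a gene (5.65% to 11.3%) and reads not aligned (14.8% to 34.0%) were left out. Genes with at least 100 counts over all libraries were tested. Counts were fitted with edgeR 4.0.16 (quasi-likelihood, TMM, R 4.3.3) as 24 means of genotype, diet, and ZT, and with a cosine and sine of 24 hours per group. Mesor, amplitude, and phase were fitted by least squares to values variance-stabilized with DESeq2 1.42.0, with delta-method errors. P-values were adjusted by Benjamini-Hochberg over all 15548 genes, and for phase over the genes compared. Counts simulated from the NC libraries served to check the edgeR genotype test over all ZTs, the amplitude and phase comparisons between genotypes, and the rhythm test. The other tests were not checked in this way. Replicate numbers follow sample order, and each library is 1 mouse. Named genes of each list were at most the 3 with the smallest p among those called. The genes and lists were chosen with earlier results of these data known. Alternatives were DESeq2, size factors, filters, sex, each sex alone, each replicate left out, and the 7 discordant libraries left out. Count depth limits low values, as Per3 had as few as 1 read in a library. A gene that the rule for named genes picks is not reported here.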

Additional observations from a re-analysis of the deposited data

Results flagged for a closer look

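Of 120 sets of 4 values (5 genes in 24 groups, so that sets share libraries), 16 (13.3%) held a value far from the other 3, by Dixon's test at the 95% level. Chance flags about 1 in 20 sets, and the share over all genes was not computed. Of these 16 values, 4 came from the libraries standing with the other genotype: Cry1 at 54.2 CPM and Per2 at 21.7 CPM in the same Hep-Bmal1WT library at ZT 6 on NC, Cry1 at 54.7 CPM in Hep-Bmal1WT at ZT 18 on NC, and Per3 at 48.3 CPM in Hep-Bmal1KO at ZT 10 on NC.

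Among the others, Cry1 stood apart at 50.9 CPM in Hep-Bmal1KO at ZT 2 and at 14.4 CPM in Hep-Bmal1WT at ZT 10, both on NC. Cry2 stood apart at 12.4 CPM in Hep-Bmal1WT at ZT 6 on NC, and on cdHFD in Hep-Bmal1WT at 7.63 CPM at ZT 10, 13.3 CPM at ZT 14, and 21.7 CPM at ZT 18. Per1 stood apart at 7.92 CPM in Hep-Bmal1KO at ZT 2 on NC and at 12.4 CPM in Hep-Bmal1WT at ZT 2 on cdHFD. Per2 stood apart at 3.66 CPM in Hep-Bmal1KO at ZT 6 on NC, at 8.65 CPM in Hep-Bmal1KO at ZT 10 on cdHFD, and at 47.02 CPM in Hep-Bmal1WT at ZT 14 on NC. Per3 stood apart at 12.47 CPM in Hep-Bmal1KO at ZT 10 on cdHFD.

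The genotype difference itself differed between the diets, at an unadjusted p under 0.05, for 5 values. These were the amplitudes of Per2 (0.51) and Per3 (0.78), the mesor of Cry1 (-0.60), and the phases of Per1 (4.28 hours) and Per3 (3.72 hours). None of the 5 passed after adjustment, over all genes for mesor and amplitude and over the 160 genes compared for phase.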

How the results depend on the processing

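Over 129 single values, 1401 recomputed values kept direction and side of the threshold in 1216 cases, were weaker in 122, stronger in 22, moved in 2, and changed sign in 39. Causes were not tested. Counts below are of Per and Cry calls, with the main count after "from". The share of all genes called under each alternative is not given here. Leaving out the 7 discordant libraries gave 9 (from 4) genotype calls at single ZTs on NC, 3 (from 0) for genotype by ZT on NC, 1 (from 0) on cdHFD, 2 (from 1) over all ZTs on cdHFD, 1 (from 0) for its difference between diets, 3 (from 5) for diet in Hep-Bmal1KO, and 1 (from 0) for sex. Among the calls gained at single ZTs on NC, those of Cry1 and Per2 at ZT 2 came at a ZT without any of the 7. Fitting the compared groups alone gave 1 (from 4) at single ZTs on NC, 2 (from 1) over all ZTs on cdHFD, and 1 (from 0) for genotype by ZT on cdHFD. No filter gave 1 (from 0) for genotype by ZT on each diet, and DESeq2 gave 1 on cdHFD. Males alone gave 4 (from 7) CircaCompare calls for diet in Hep-Bmal1WT, 3 (from 5) for genotype by diet, and 1 (from 3) rhythm call in Hep-Bmal1KO on NC. Females alone gave 2 (from 7) for genotype on NC, 3 (from 5) on cdHFD, and 0 for genotype by diet. The adjusted p gave 2, 3, and 0 for these, and 1 rhythm call in Hep-Bmal1KO on NC. Leaving out 1 replicate gave CircaCompare counts of 4 to 8 for diet in Hep-Bmal1WT and 1 to 3 for genotype by diet. In edgeR it gave 4 to 7 for diet at single ZTs in Hep-Bmal1KO, 3 to 4 over all ZTs in Hep-Bmal1KO, 1 to 3 in Hep-Bmal1WT, 0 to 5 for genotype at single ZTs on NC, 0 to 2 on cdHFD, 0 to 1 over all ZTs on cdHFD (Cry1 lost each time, Per3 gained without replicate 3), 0 to 1 for genotype by ZT on NC, 0 to 1 for sex, and 1 to 3 rhythm calls in Hep-Bmal1KO on NC. Of the 3 genes most like Cry2, 0 stayed over 96 single libraries and 1 by Spearman.

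The sign of the Per1 amplitude difference between genotypes on NC turned with DESeq2 size factors (0.029), log2 CPM (0.023), the edgeR amplitude (0.026), and females alone (0.085), and ranged from -0.078 to 0.040 with 1 replicate left out. Without the 7 libraries sign changes were, for genotype by diet, Cry1 amplitude 0.19, Per1 amplitude 0.050, Per2 phase -0.0043 hours, and Per3 level 0.29, and, for diet in Hep-Bmal1WT at ZT 6, Cry1 0.11. With 1 replicate left out, Cry1 at that ZT ranged from -2.22 to 0.31. For diet in Hep-Bmal1WT the Per1 mesor ranged from -0.022 to 0.25 and its level from -0.015 to 0.35. In Hep-Bmal1KO the amplitudes ranged from -0.0905 to 0.29 for Cry1, -0.059 to 0.0015 for Cry2, and -0.0201 to 0.22 for Per2, and the Per1 phase from -1.32 to 0.32 hours. For genotype by diet, Per2 ranged from -0.096 to 0.18 in mesor, -0.12 to 0.33 hours in phase, and -0.15 to 0.16 in level, and Per3 from -0.043 to 0.22 in mesor and -0.48 to 0.027 in level. The sex difference of Per1 ranged from -0.011 to 0.25. Males alone turned Per1 on cdHFD (mesor -0.026, amplitude 0.080), the diet values of Per3 mesor (0.0055) and Per1 phase (0.37 hours) in Hep-Bmal1KO, and Per1 amplitude for genotype by diet (0.21). Females alone turned Cry2 amplitude on cdHFD (0.049), the diet values of Per1 mesor (-0.25) and Cry1 amplitude (-0.0042) in Hep-Bmal1WT, of Cry1 (-0.48) and Per2 (-0.098) amplitude in Hep-Bmal1KO, and Per2 mesor for genotype by diet (0.11). No paired analysis was possible because the labels number no replicates and each mouse gave 1 library.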
